A study of Xenopus tropicalis with 9 samples.

Results

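This report compares polyA with RZ (ribosomal RNA depleted, RiboZero) RNA of the Xenopus tropicalis oocyte, gene by gene. The measure is the PA/RZ ratio, the RPKM of a gene (its reads scaled to exon length in kb and to the mapped reads of the library) in the polyA library over its RPKM in the RZ library, given as log2. A gene entered the comparison if it had at least 1 RPKM in 1 of the 2 oocyte libraries and a value above 0 in both. This left 9503 of the 15288 genes of the table. Genes at the edge of the RPKM minimum were tbc1d20.2, with a polyA level of 1.0002 RPKM against 0.215 RPKM in RZ, and, just outside it, c15orf26, with a polyA level of 0.998 RPKM against 0.202 RPKM in RZ. The RNA came from stage VI oocytes of this frog, freed from their ovarian follicles with collagenase, and total RNA was either passed through successive rounds of oligo(dT) selection or depleted of ribosomal RNA. No genotype or treatment of the oocyte donors other than this is stated. Each library was made from a pool of 3 biological replicates, so that each condition is 1 library and no spread between replicates can be given. All differences below are therefore descriptions of 2 libraries, with no test, and a fold of 2 (log2 of 1 or more, or of -1 or less) is used as a descriptive limit.

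The fully grown frog oocyte carries a large store of maternal mRNA. Much of this store is held with short poly(A) tails and is not translated until the tail is lengthened in the cytoplasm during maturation or after fertilization, while mRNAs with long tails bind poly(A) binding protein and are translated in the oocyte. Selection on oligo(dT) favours mRNAs with a long tail, whereas depletion of ribosomal RNA keeps mRNAs whatever their tail. Replication-dependent histone mRNAs are a special case, as in animals they generally end in a stem-loop in place of a long tail. In the study the PA/RZ ratio was taken as a possible guide to how far a transcript is polyadenylated. It compares shares of different RNA pools and is no measure of tail length.

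Mapped reads, recovered from the RPKM values of short genes, numbered 25762043 in the polyA oocyte library and 23130964 in the RZ oocyte library. With these totals, 3 reads on an exon of 1 kb corresponded to 0.116 RPKM in polyA and 0.130 RPKM in RZ. All 11 oocyte marker genes, which include the egg coat gene zp2 and the kinase gene mos, had at least 1 RPKM in both libraries. Of 13 follicle cell markers, 1 reached 1 RPKM in polyA and 0 in RZ, and their summed level was 6.37 RPKM in polyA against 0.9181 RPKM in RZ. The 8 markers of connective tissue and muscle summed to 2.73 RPKM in polyA against 0.406 RPKM in RZ. The 9 liver markers summed to 0.495 RPKM in polyA against 0.0321 RPKM in RZ. The 11 blood markers summed to 4.58 RPKM in polyA against 5.75 RPKM in RZ. Most of this RZ sum came from slc4a1, with 2.54 RPKM in polyA against 5.08 RPKM in RZ, whereas the globin gene hbg1 had 1.04 RPKM in polyA against 0.505 RPKM in RZ. Listed at 0 were 1 follicle, 0 connective tissue, 3 blood and 5 liver markers in polyA and 3 follicle, 1 connective tissue, 7 blood and 7 liver markers in RZ. The part of such cells in the ratios of other genes was not tested. In bulk RNA, fewer cells of a type and less RNA per cell cannot be told apart.

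The PA/RZ ratio spread widely around a median slightly above 0. The median log2 PA/RZ of the 9503 genes was 0.29, with quartiles of -0.64 and 1.19 and an SD of 1.43 across genes. Of these genes, 2836 (29.8%) were at least 2-fold higher in polyA and 1677 (17.6%) at least 2-fold higher in RZ, while 4990 lay within 2-fold. A difference of 4-fold or more was seen for 930 genes toward polyA and 524 genes toward RZ, and one of 16-fold or more for 52 genes toward polyA and 34 genes toward RZ. The point at which polyA and RZ count as equal is set by scaling, since each RPKM is relative to the mapped reads of its own library. Centring on the median lowered every ratio by 0.29 and gave 2133 genes toward polyA and 2236 toward RZ. Scaling both libraries to the same summed RPKM shifted the median to -0.49 and gave 1235 genes toward polyA and 3369 toward RZ. The order of the genes, and their distance from the median of all genes, are the same under these scalings, and gene lists are therefore set beside that median.

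The lowest PA/RZ ratios among well-detected genes belonged to genes with 0.434 to 2.47 RPKM in polyA against 10.2 to 51.5 RPKM in RZ. Among named genes with at least 10 RPKM in 1 library, the lowest was hist1h2al, a histone H2A gene (scaffold 38, 363197 to 363734, JGI 7.1), with 1.23 RPKM in polyA against 47.6 RPKM in RZ (log2 PA/RZ -5.28). The next was zbtb45, which codes for a BTB zinc finger protein, with 0.687 RPKM in polyA against 26.1 RPKM in RZ (log2 PA/RZ -5.25). The kinase gene ripk4 had 0.774 RPKM in polyA against 20.02 RPKM in RZ, and limd1, a LIM domain protein gene, had 0.658 RPKM in polyA against 16.2 RPKM in RZ. The other 6 genes at this end were nbeal2, cd276, zbtb44, lrp1, ankrd52 and zdhhc17, with ratios between -4.56 for nbeal2 and -4.38 for zdhhc17. Of these, cd276, which codes for a membrane protein of the B7 family, had 2.32 RPKM in polyA against 49.6 RPKM in RZ, and ankrd52, which codes for a subunit of a phosphatase complex, had 2.47 RPKM in polyA against 51.5 RPKM in RZ. As the limit of 10 RPKM in 1 library was part of the choice, genes of such low ratio could pass it only through RZ. In polyA all 10 genes had under 3 RPKM.

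All 4 argonaute genes of the table, whose proteins bind microRNAs, also lay at the RZ end. They were picked out after their values were seen. The most abundant, eif2c4, had 7.90 RPKM in polyA against 114 RPKM in RZ (log2 PA/RZ -3.85). The log2 ratio was -3.81 for eif2c3, -3.26 for eif2c1 and -1.59 for eif2c2. The genes eif2c1, eif2c3 and eif2c4 are neighbours on scaffold 2. At stage 9 eif2c4 had 99.6 RPKM in polyA against 145 RPKM in RZ.

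The highest ratios came in part from very abundant polyA transcripts and in part from genes close to absent from RZ. The gene tmsb4x, which codes for the actin-binding peptide thymosin beta 4 (scaffold 2, 47074419 to 47074775), was the most abundant of the polyA library, with 3529 RPKM in polyA against 61.8 RPKM in RZ (log2 PA/RZ 5.84). It was followed in that library by mt4, a metallothionein gene, with 2555 RPKM in polyA against 310 RPKM in RZ, by ccnb1, described with the cell cycle genes, and by gng5, a gene of a G protein gamma subunit, with 1983 RPKM in polyA against 254 RPKM in RZ. Further down in level, the proteasome assembly gene pomp had 129 RPKM in polyA against 3.26 RPKM in RZ, the prefoldin gene pfdn1 had 91.9 RPKM in polyA against 4.13 RPKM in RZ, and polr3g, a gene of an RNA polymerase III subunit, had 42.8 RPKM in polyA against 1.81 RPKM in RZ. The genes tmsb4x, pomp, pfdn1 and polr3g were detected well above 3 reads per kb in both libraries. The other 6 genes of the polyA end had under 1 RPKM in RZ. Like pomp, pfdn1 and polr3g, these 6 genes passed the limit of 10 RPKM in 1 library only through polyA. The highest ratio of these, 7.499, was that of gsta1, a glutathione transferase gene, with 13.4 RPKM in polyA against 0.0742 RPKM in RZ, a level below 3 reads per kb. The genes ube2ql1, zfp36, fam163b, npy and meig1 had between 11.6 RPKM (npy) and 21.1 RPKM (zfp36) in polyA and between 0.253 RPKM (ube2ql1) and 0.896 RPKM (meig1) in RZ. At stage 6 the log2 ratio of gsta1 was -1.27 and that of ube2ql1 was -2.54, so that these did not keep their place in the order, while pomp had 3.47 at stage 6.

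**Figure D1:**
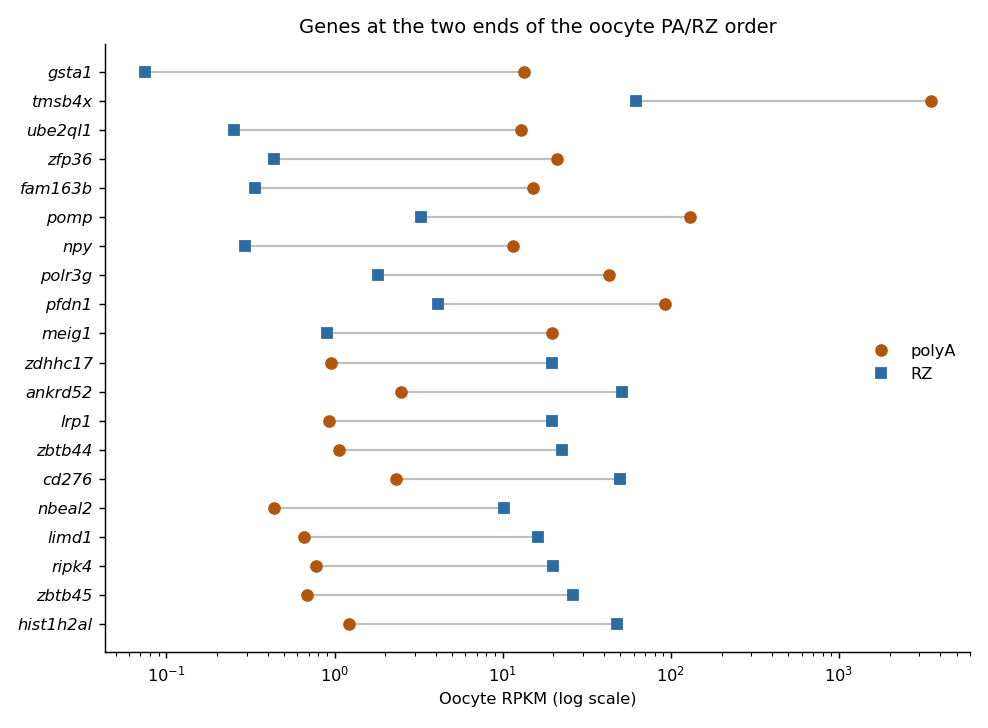
RPKM in the polyA (circles) and RZ (squares) oocyte libraries, on a log axis, of the 10 named genes with the highest and the 10 with the lowest PA/RZ ratio among genes with at least 10 RPKM in 1 library. At the polyA end tmsb4x reaches 3529 RPKM in polyA, and at the RZ end hist1h2al has 1.23 RPKM in polyA and 47.6 RPKM in RZ; each library has 1 value per gene and no error bar.

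Functional groups took clearly different places in the order. Of 46 lists of genes with a shared function, 45 had at least 5 members with a ratio, and their medians ran from -1.60 for receptors of signalling pathways to 2.13 for proteins of the cytosolic ribosome, against 0.29 for all genes. The 5 lists of highest median were the cytosolic ribosomal proteins, the nuclear-coded respiratory chain, the mitochondrial ribosomal proteins, the ubiquitin-conjugating enzymes and the zona pellucida genes. The 5 of lowest median were the signal receptors, the ubiquitin proteases, motors and large cytoskeletal proteins, matrix and adhesion proteins, and the replication-dependent histones. Scaling both libraries to the same summed RPKM lowers every ratio alike, so that of the lists just named only the 5 highest could change sign. Their medians stayed above 0, the lowest of them being 0.54 for the zona pellucida genes. Some lists between these ends did change sign. For example, DNA replication factors went from 0.76 to -0.02 and translation initiation factors from 0.59 to -0.19.

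**Figure D2:**
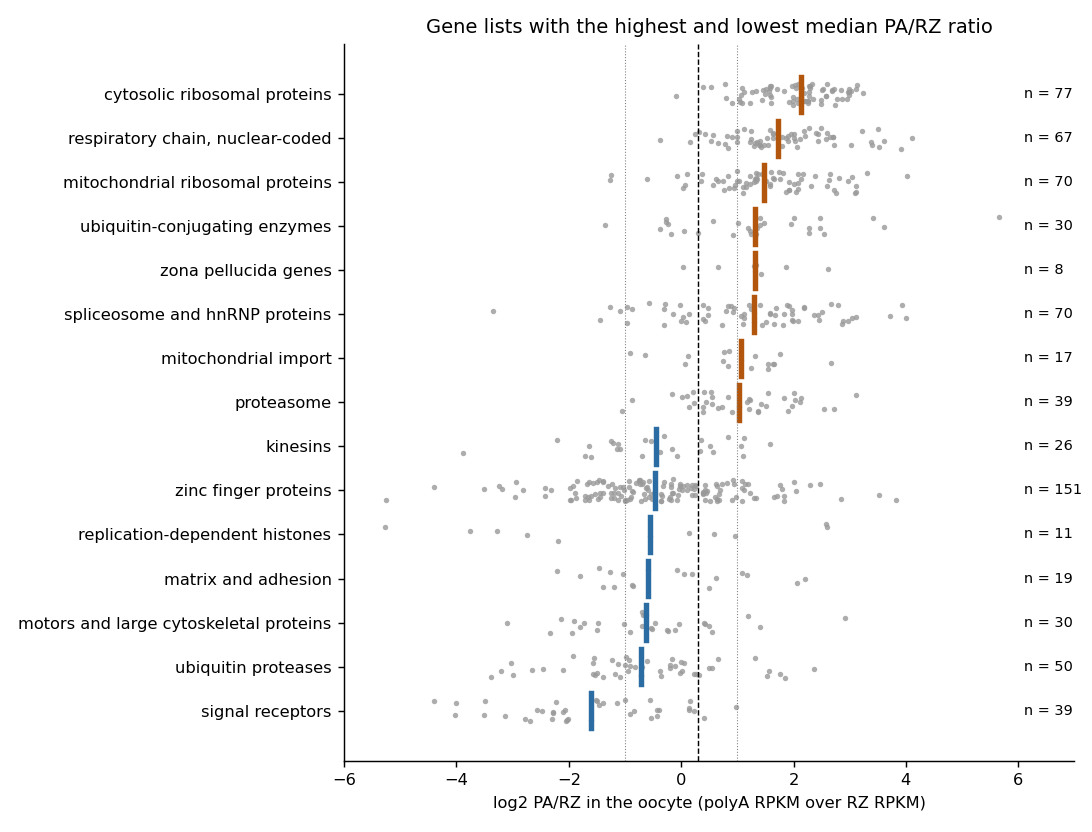
Log2 PA/RZ in the oocyte of every member (grey points) of the 8 gene lists with the highest and the 7 with the lowest median (thick bars); the dashed line is the median of all 9503 genes, 0.29, and the dotted lines mark a 2-fold difference. Cytosolic ribosomal proteins sit almost wholly right of 1, whereas signal receptors lie mostly left of -1.

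Genes for proteins of the cytosolic ribosome stood at the top of the order and had a narrow spread, with quartiles of 1.56 and 2.53 against -0.64 and 1.19 for all genes. Their mRNAs are short and are used at a high rate in growing cells. Of 77 members with a ratio, 71 (92.2%, against 29.8% of all genes) were at least 2-fold higher in polyA and 0 at least 2-fold higher in RZ. The median level was 251 RPKM in polyA against 60.0 RPKM in RZ. The most abundant, rps29, had 1863 RPKM in polyA against 403 RPKM in RZ (log2 PA/RZ 2.21), rps18 had 821 RPKM in polyA against 119 RPKM in RZ, and rps20 had 669 RPKM in polyA against 138 RPKM in RZ. The ratio ran from -0.10 for rplp1, an acidic protein of the ribosome stalk with 148 RPKM in polyA against 159 RPKM in RZ, to 3.23 for rps26. After rplp1 came rplp0, of the same stalk, with 0.39, and rpl7a with 0.54. Another stalk gene, rplp2, was more than 2-fold higher in polyA, with 64.6 RPKM in polyA against 30.5 RPKM in RZ (log2 PA/RZ 1.08). The 46 genes of the large subunit had a median of 2.01 and the 31 of the small subunit one of 2.21.

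The mitochondrial lists lay at the same end. The 67 nuclear-coded subunits of the respiratory chain and ATP synthase had a median of 1.73. Of these, 53 (79.1%, against 29.8% of all genes) were at least 2-fold higher in polyA. At least 2-fold higher in RZ were 0, against 17.6% of all genes. The 34 subunits of complex I had a median of 2.04, the 11 of complex IV one of 1.73, the 14 of ATP synthase one of 1.44 and the 7 of complex III one of 0.57. Within complex III the members differed widely, as uqcr11, a small subunit, had 857 RPKM in polyA against 49.5 RPKM in RZ (log2 PA/RZ 4.11) and the core protein gene uqcrc1 had 12.8 RPKM in polyA against 16.7 RPKM in RZ (log2 PA/RZ -0.38). Among abundant members, cox7a2 had 469 RPKM in polyA against 151 RPKM in RZ and atp5g3 had 441 RPKM in polyA against 188 RPKM in RZ. Of the 70 proteins of the mitochondrial ribosome, 50 (71.4%) were at least 2-fold higher in polyA and 2 (2.86%) in RZ, with a median of 1.48. The extremes were mrpl30, with 96.2 RPKM in polyA against 5.96 RPKM in RZ, and mrpl28, with 28.7 RPKM in polyA against 68.8 RPKM in RZ. The 17 translocase subunits for protein import had a median of 1.06, with 9 toward polyA and 0 toward RZ, but tomm70a, the receptor of the outer membrane, had 17.4 RPKM in polyA against 32.6 RPKM in RZ. A single mitochondrially coded subunit was listed, cox3, with 1086 RPKM in polyA against 95.8 RPKM in RZ (log2 PA/RZ 3.50).

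Some other housekeeping groups were also shifted to polyA, with more spread, and others were not. Spliceosome and hnRNP proteins had a median of 1.29, and 42 of 70 (60.0%) were at least 2-fold higher in polyA and 4 (5.71%) in RZ. Among all genes these shares were 29.8% and 17.6%. The hnRNP gene hnrnpab was the most abundant, with 1316 RPKM in polyA against 180 RPKM in RZ, and the Sm protein gene snrpg had the highest ratio, with 431 RPKM in polyA against 26.8 RPKM in RZ (log2 PA/RZ 4.01). At the other end prpf31, which codes for a factor of the tri-snRNP, had 5.94 RPKM in polyA against 60.6 RPKM in RZ (log2 PA/RZ -3.35). The 17 Sm and Lsm proteins had a median of 1.92, the 16 hnRNP proteins one of 1.74 and the 11 SR proteins one of 1.07. Ubiquitin-conjugating enzymes had a median of 1.32, with 20 of 30 toward polyA and 1, ube2j2, toward RZ. Among them ube2c and ube2s, the partners of the anaphase-promoting complex, had 345 and 288 RPKM in polyA, against 130 and 49.8 RPKM in RZ. Proteasome genes had a median of 1.02, with 20 of 39 toward polyA and 1, the activator gene psme4, toward RZ. Chaperones had a median of 0.98, which ran from -3.41 for dnajc10 to 3.92 for hspe1, the mitochondrial cochaperonin, with 300 RPKM in polyA against 19.9 RPKM in RZ. In contrast aminoacyl-tRNA synthetases, which charge tRNAs, had a median of 0.25, close to the 0.29 of all genes. Of 34, 10 (29.4%) were toward polyA and 3 (8.82%) toward RZ. Coat proteins and the translocon had a median of 0.21, with 5 of 29 (17.2%) toward polyA and 3 (10.3%) toward RZ. Nucleoporins had a median of 0.02, with 6 of 25 (24.0%) toward polyA and 1 (4.0%) toward RZ. These medians lay below that of all genes, but the shares toward RZ did too. The RNA exosome and decapping genes had a median of 0.04, with 3 of 24 toward polyA and 6 toward RZ.

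The egg coat genes lay mostly at the polyA side in the oocyte. The zona pellucida glycoproteins form the vitelline envelope and are made by the growing oocyte. Of 8 genes, 6 were at least 2-fold higher in polyA and 0 in RZ, with a median of 1.32. Among all genes, 29.8% were at least 2-fold higher in polyA and 17.6% in RZ. In a list of 8 genes, a count of 0 toward RZ therefore says little. The highest ratio was that of zpd, with 189 RPKM in polyA against 31.1 RPKM in RZ (log2 PA/RZ 2.60). The gene zp3.2 had 162 RPKM in polyA against 44.5 RPKM in RZ, zp2 had 118 RPKM in polyA against 47.3 RPKM in RZ, and zp3 had 74.1 RPKM in polyA against 29.8 RPKM in RZ. The genes within 2-fold were zp4, with 173 RPKM in polyA against 109 RPKM in RZ, and zpax, with 40.8 RPKM in polyA against 39.9 RPKM in RZ.

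At the opposite end stood the cell surface receptors of the Wnt, BMP, activin, FGF, Notch, Hedgehog, Eph, insulin and LRP families. Many of these, but not all, receive signals that pattern the embryo. Of 61 receptor genes, 39 had a ratio. Of these 39, 26 (66.7%, against 17.6% of all genes) were at least 2-fold higher in RZ. At least 2-fold higher in polyA were 0, against 29.8% of all genes, and 2 lay above the median of all genes. Their median log2 PA/RZ was -1.60, with a median level of 3.09 RPKM in polyA against 10.8 RPKM in RZ. The lowest RZ level of a member was 1.36 RPKM, so that members under 1 RPKM in polyA passed the minimum only through RZ. With at least 1 RPKM in both libraries the median was -1.46. It was -2.04 with at least 10 RPKM in 1 library and -1.50 with no minimum. The lowest ratio was that of the endocytic receptor gene lrp1, with 0.930 RPKM in polyA against 19.6 RPKM in RZ (log2 PA/RZ -4.40). The FGF receptor gene fgfr4 had 3.55 RPKM in polyA against 58.0 RPKM in RZ (log2 PA/RZ -4.03), and the insulin receptor gene insr had 0.446 RPKM in polyA against 7.13 RPKM in RZ.

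Within the receptors, the families were not alike in each member. Of the 8 receptors for BMP, TGF-beta and activin, 5 were at least 2-fold higher in RZ, with a median of -2.14. The type II activin receptor gene acvr2b had 2.60 RPKM in polyA against 29.3 RPKM in RZ and acvr1b, the type I receptor for Nodal and activin, had 4.68 RPKM in polyA against 41.4 RPKM in RZ. In the same family acvr1 had 33.2 RPKM in polyA against 25.2 RPKM in RZ and tgfbr1 had 36.7 RPKM in polyA against 33.5 RPKM in RZ. Of the 9 Wnt receptors and coreceptors, 7 were at least 2-fold higher in RZ. Among these fzd7, a maternal receptor of Wnt signalling in Xenopus, had 23.3 RPKM in polyA against 46.9 RPKM in RZ, and the coreceptor genes lrp5 and lrp6 had 3.93 and 4.46 RPKM in polyA, against 21.9 and 26.3 RPKM in RZ. The 3 Notch receptors were all at least 2-fold higher in RZ, whereas of the 4 FGF receptors fgfr4 alone was, fgfr1 having 15.3 RPKM in polyA against 13.9 RPKM in RZ. The highest ratio of the list was 0.98, for lrp10.

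**Figure D3:**
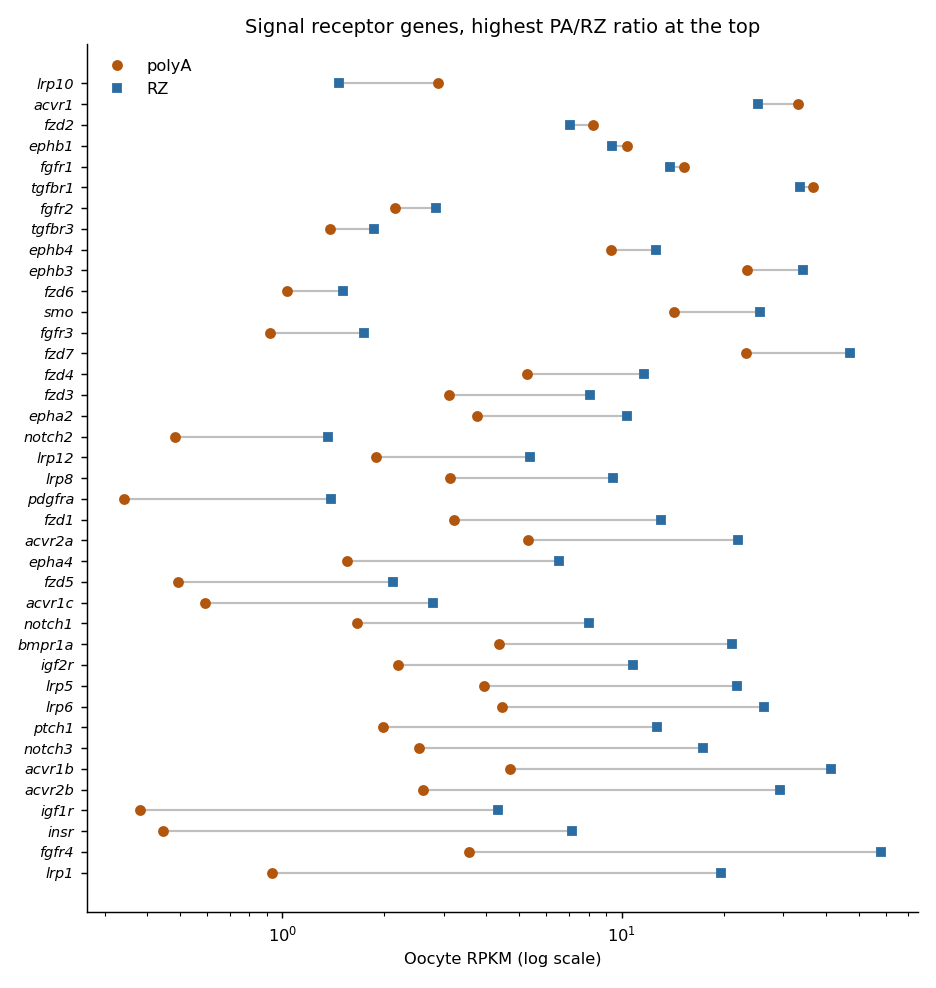
RPKM in the polyA (circles) and RZ (squares) oocyte libraries, on a log axis, of the 39 signal receptor genes with a ratio, ordered by PA/RZ ratio with the highest at the top. The square lies right of the circle in all but the top 6 genes, and in 26 genes the gap is at least 2-fold.

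The other lists of low median were shifted less than the receptors. Ubiquitin proteases, which remove ubiquitin, had a median of -0.71 with 18 of 50 (36.0%) at least 2-fold higher in RZ and 6 (12.0%) in polyA. Among all genes these shares were 17.6% and 29.8%. Within the ubiquitin proteases the 39 USP genes had a median of -0.95. The lowest was usp32, with 1.69 RPKM in polyA against 17.7 RPKM in RZ, while the small ubiquitin hydrolase gene uchl1 had 328 RPKM in polyA against 114 RPKM in RZ. Motors and large cytoskeletal proteins had a median of -0.63, with 10 of 30 toward RZ and 3 toward polyA, among them the spectrin gene sptan1, with 3.70 RPKM in polyA against 31.6 RPKM in RZ. Matrix and adhesion genes had a median of -0.60, with 7 of 19 (36.8%) toward RZ and 4 (21.1%) toward polyA. These 19 were the members with a ratio among 124 matrix and adhesion genes. Their median moved with the RPKM minimum, being -0.07 with at least 1 RPKM in both libraries and -0.33 with no minimum. With at least 10 RPKM in 1 library it was -0.86. The most abundant member of this list was cdh3, a maternal cadherin, with 102 RPKM in polyA against 186 RPKM in RZ. The lowest ratio of the list was that of fn1, fibronectin, with 5.92 RPKM in polyA against 27.5 RPKM in RZ. Kinesins had a median of -0.45, with 10 of 26 (38.5%) toward RZ and 4 (15.4%) toward polyA. They ran from kif18b, with 2.62 RPKM in polyA against 38.5 RPKM in RZ, to kif2c, with 143 RPKM in polyA against 47.4 RPKM in RZ.

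Zinc finger proteins, most of them DNA-binding proteins, had a median of -0.46. Of 151, 50 (33.1%) were toward RZ and 22 (14.6%) toward polyA, against 17.6% and 29.8% of all genes. All 22 toward polyA were znf genes, and of 29 zbtb genes 11 were toward RZ and 0 toward polyA, with a median of -0.86. The gene zbtb34 had 3.87 RPKM in polyA against 44.4 RPKM in RZ. At the other end znf706, which codes for a small zinc finger protein, had 273 RPKM in polyA against 37.9 RPKM in RZ. Among the MAP kinase cascade the median differed by tier, but the tiers, formed after the values were seen, overlapped widely. The 12 upstream MAP kinase kinase kinases had a median of -0.78, while the 5 MAP kinase kinases had -0.25 and the 8 MAP kinases 0.07. The first tier ran from -4.16 to 2.19, the second from -1.02 to 1.12 and the third from -1.47 to 0.58. The lowest was map3k9, with 0.680 RPKM in polyA against 12.2 RPKM in RZ.

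Replication-dependent histones did not move as a block. Of 11 members with a ratio, 5 (45.5%) were at least 2-fold higher in RZ and 2 (18.2%) in polyA, against 17.6% and 29.8% of all genes. Their median was -0.56. Beside hist1h2al, the genes at the RZ end were hist1h4a, with 4.02 RPKM in polyA against 54.4 RPKM in RZ, hist2h2be, with 2.66 RPKM in polyA against 25.9 RPKM in RZ, hist1h2ad, with 4.77 RPKM in polyA against 32.1 RPKM in RZ, and hist1h4c, with 0.594 RPKM in polyA against 2.70 RPKM in RZ. The polyA end held hist1h2aa, with 524 RPKM in polyA against 87.5 RPKM in RZ (log2 PA/RZ 2.58), and hist1h2am, with 107 RPKM in polyA against 17.7 RPKM in RZ (log2 PA/RZ 2.60). The median of this list depends on which low genes are let in, being -2.19 with no RPKM minimum and -0.21 with at least 1 RPKM in both libraries. Histone genes have near-identical copies, and reads that mapped to several positions had been left out by the authors, so that the split of reads between copies is uncertain.

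Histone variants outside the cell-cycle clusters ran from -3.95 (h2afx) to 3.70 (h1foo), with a median of 0.84, and 9 of 11 were above the median of all genes. The oocyte-specific linker histone gene h1foo had 885 RPKM in polyA against 68.0 RPKM in RZ (log2 PA/RZ 3.70), and cenpa, the centromeric histone H3, had 123 RPKM in polyA against 29.6 RPKM in RZ. The genes of histone H3.3, h3f3a and h3f3b, had 360 and 201 RPKM in polyA, against 224 and 129 RPKM in RZ. In contrast h2afx, whose product marks DNA breaks when phosphorylated, had 16.2 RPKM in polyA against 250 RPKM in RZ (log2 PA/RZ -3.95), and h2afj had 6.05 RPKM in polyA against 56.3 RPKM in RZ. Of the 11 variants, 5 (45.5%) were toward polyA and 2 (18.2%) toward RZ, against 29.8% and 17.6% of all genes.

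Genes for the control of poly(A) tails and maternal mRNA were themselves spread around the median of all genes. Their median was 0.36, with 16 of 56 at least 2-fold higher in polyA and 9 in RZ, shares close to those of all genes. Toward polyA were the oocyte poly(A) binding protein genes pabpc1l, with 61.4 RPKM in polyA against 18.5 RPKM in RZ, and pabpn1l, with 127 RPKM in polyA against 44.1 RPKM in RZ. The same was true of papd4, the cytoplasmic poly(A) polymerase known as GLD2 (48.7 RPKM in polyA against 14.1 RPKM in RZ), and of tacc3, known as maskin (249 RPKM in polyA against 81.2 RPKM in RZ). The most abundant of the list, zar1l and btg4, had 384 and 369 RPKM in polyA, against 123 and 109 RPKM in RZ. Toward RZ was pum2, which codes for an RNA-binding protein of maternal mRNAs, with 10.2 RPKM in polyA against 47.8 RPKM in RZ. The deadenylase gene cnot6l had 20.7 RPKM in polyA against 76.5 RPKM in RZ. The gene cpeb1, whose product binds the cytoplasmic polyadenylation element, had 55.9 RPKM in polyA against 93.0 RPKM in RZ, and celf1, which codes for the EDEN binding protein, had 20.5 RPKM in polyA against 19.4 RPKM in RZ. The gene slbp, for the protein that binds the histone stem-loop, had 141 RPKM in polyA against 174 RPKM in RZ.

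The regulators of meiosis and of the early cell cycles held the most abundant transcripts of total RNA. Of 26 cyclins, kinases and regulators, 7 (26.9%) were at least 2-fold higher in polyA and 6 (23.1%) in RZ, against 29.8% and 17.6% of all genes, and the median was -0.16. The B cyclin gene ccnb1 had 2332 RPKM in polyA against 612 RPKM in RZ (log2 PA/RZ 1.93) and ccnb2 had 1091 RPKM in polyA against 530 RPKM in RZ (log2 PA/RZ 1.04). The related gene ccnb1.2, the highest of the RZ library, had 613 RPKM in polyA against 631 RPKM in RZ (log2 PA/RZ -0.04). The A cyclins lay toward RZ, with 210 RPKM in polyA against 509 RPKM in RZ for ccna1 and 80.5 RPKM in polyA against 196 RPKM in RZ for ccna2. The kinase genes cdk1 and plk1 had 354 and 505 RPKM in polyA, against 101 and 213 RPKM in RZ, and cdk2 had 118 RPKM in polyA against 56.8 RPKM in RZ. The phosphatase gene cdc25a had 14.4 RPKM in polyA against 158 RPKM in RZ (log2 PA/RZ -3.45). The same side held fbxo43, known as emi2, an inhibitor of the anaphase-promoting complex that keeps the egg in metaphase, with 14.6 RPKM in polyA against 86.8 RPKM in RZ (log2 PA/RZ -2.58). Its relative fbxo5, known as emi1, had 70.2 RPKM in polyA against 94.4 RPKM in RZ, and mos, which acts in the same arrest, had 65.1 RPKM in polyA against 60.2 RPKM in RZ. In mitosis genes the kinetochore and passenger complex list had a median of 0.82, with 14 of 36 toward polyA and 1 toward RZ. The kinase gene aurkb had 288 RPKM in polyA against 106 RPKM in RZ.

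Factors stored for axis and germ layer formation had a median of -0.36, with 4 of 24 (16.7%) toward polyA and 7 (29.2%) toward RZ, against 29.8% and 17.6% of all genes. The beta-catenin gene ctnnb1, the effector of dorsal axis formation, had 65.7 RPKM in polyA against 305 RPKM in RZ (log2 PA/RZ -2.21). The gene tcf3 had 4.66 RPKM in polyA against 39.1 RPKM in RZ. The T-box gene vegt, a maternal determinant of endoderm, had 25.4 RPKM in polyA against 56.4 RPKM in RZ, and sox3 had 111 RPKM in polyA against 234 RPKM in RZ. The paper names sox3 as the exception to a good correlation between polyA sequencing and RT-qPCR from oligo(dT) primers, so its ratio is less certain. In the other direction dvl2, which codes for a Dishevelled protein of the Wnt pathway, had 25.3 RPKM in polyA against 5.41 RPKM in RZ, whereas dvl3 had 9.43 RPKM in polyA against 24.1 RPKM in RZ. The POU factor gene oct91 was low, with 2.60 RPKM in polyA against 1.63 RPKM in RZ. Germ plasm and piRNA genes had a median of 0.42, with 6 of 23 toward polyA and 4 toward RZ, close to all genes. Here the germ cell helicase gene ddx4 had 14.1 RPKM in polyA against 4.09 RPKM in RZ and grip2 had 2.11 RPKM in polyA against 7.31 RPKM in RZ.

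For genes with a single exon the RPKM could be turned into whole reads, which gives the counting error of the ratio. Of 442 such genes in the table, 167 had a ratio, with a median of 206 reads in polyA and 206 reads in RZ. Their median log2 PA/RZ was 0.13. Of the 167, 35 were at least 2-fold higher in polyA and 40 in RZ. This balance was the reverse of that among all genes, with 29.8% toward polyA and 17.6% toward RZ. The single-exon genes therefore need not stand for all genes with a ratio. For 138 of the 167 the exact (Clopper-Pearson) 95% interval of the ratio left out 0. The whole interval lay at or above 1 for 26 genes and at or below -1 for 31. These intervals cover counting error only, and neither library preparation nor differences between animals. At the RZ end hist1h2al had 17 reads in polyA and 592 in RZ (interval of log2 PA/RZ -6.07 to -4.59), h2afx had 321 reads in polyA and 4449 in RZ (-4.12 to -3.78), mesdc1 had 75 reads in polyA and 917 in RZ (-4.13 to -3.43), and zbtb34 had 147 reads in polyA and 1512 in RZ (-3.77 to -3.27). The model of adrbk2 covers only 117 bases and had 3 reads in polyA and 38 in RZ (-6.16 to -2.16). At the polyA end or52m1 had 168 reads in polyA and 9 in RZ (3.11 to 5.22), hrh1 had 53 reads in polyA and 5 in RZ (1.94 to 4.93), mgst1 had 204 reads in polyA and 20 in RZ (2.53 to 3.94), mettl4 had 61 reads in polyA and 6 in RZ (1.99 to 4.69), and fkbpl had 679 reads in polyA and 73 in RZ (2.71 to 3.43). The spread of the ratio among single-exon genes, an SD of 1.59, was thus much wider than the counting error of most of them, the median interval being 0.66 wide.

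The ratio moved with the size of the gene. Across the 9503 genes, Spearman's rank correlation between log2 PA/RZ and genomic span was -0.28. This is a description across genes, which share both libraries. When genes were split into 4 groups by span, the median of the group with the shortest span, 117 to 9278 bases, was 0.78, and 42.97% were at least 2-fold higher in polyA and 10.1% in RZ. In the group with the longest span, 34879 to 419621 bases, the median was -0.26, and 17.2% were at least 2-fold higher in polyA and 29.3% in RZ. The median span was 12679 bases for the genes at least 2-fold higher in polyA and 28888 bases for those at least 2-fold higher in RZ. The span includes introns, and transcript length was not analysed here. When each gene was set against the median of its own group among 10 by span, cytosolic ribosomal proteins lay at 1.40 and signal receptors at -1.80. Relative to the median of all genes, these lists lay at 1.84 and -1.89. Motors and large cytoskeletal proteins lay at -0.93 relative to all genes and at -0.33 within span groups. Replication-dependent histones, the shortest genes of any list plotted, lay at -0.85 relative to all genes and at -1.34 within span groups. The ratio was also higher for abundant genes, with a median of 0.91 in the highest of 4 groups by summed oocyte RPKM against 0.07 in the lowest (rank correlation 0.23), although the polyA level enters both measures. Taken against RZ RPKM, which enters the ratio from below, the rank correlation was -0.15. The part that span and level play in the place of a gene list was not tested further.

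**Figure D4:**
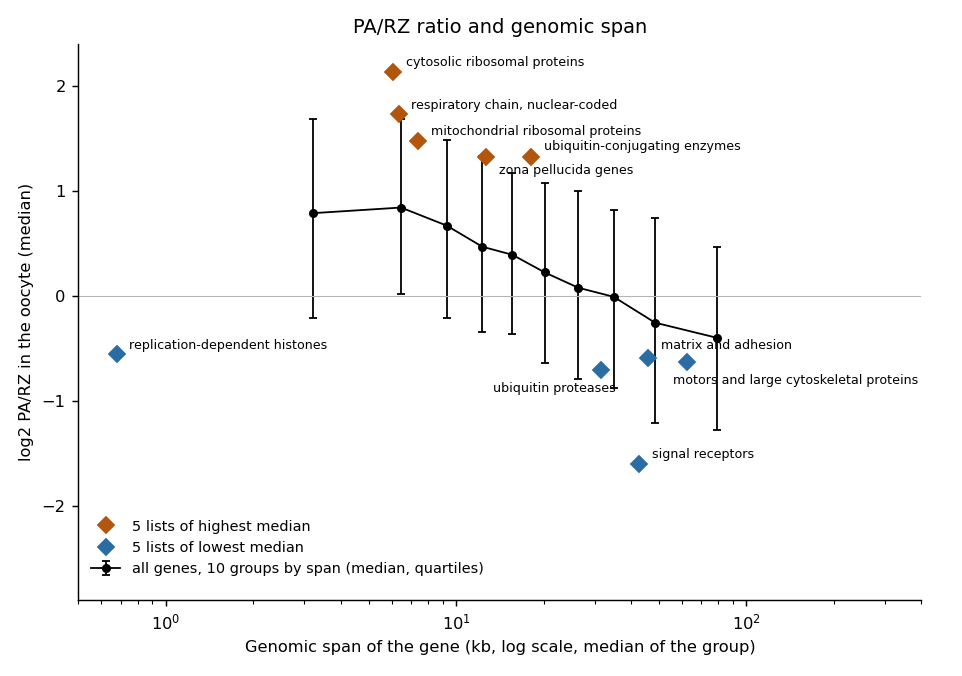
Median log2 PA/RZ against median genomic span (log axis) for 10 groups of genes of equal size ordered by span (black, bars from the lower to the upper quartile) and for the 5 gene lists of highest and of lowest median (diamonds). Past the 2 groups of shortest span the black line falls with span, signal receptors lie below it and replication-dependent histones lie far below the shortest group, while cytosolic ribosomal proteins lie above it.

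The same genes were then followed in the pairs of libraries at stage 6 (early blastula) and stage 9 (late blastula), which share no library with the oocyte pair. The median of all genes was -0.63 at stage 6, with 9.78% at least 2-fold higher in polyA and 38.0% in RZ, and 0.22 at stage 9, with 23.0% in polyA and 7.73% in RZ. Spearman's rank correlation across genes of the oocyte ratio was 0.31 with that of stage 6 and 0.41 with that of stage 9. Of the genes at least 2-fold higher in polyA in the oocyte and with a ratio later, 18.5% of 2809 were so at stage 6 and 39.5% of 2816 at stage 9. Of those at least 2-fold higher in RZ, 56.6% of 1669 were so at stage 6 and 20.3% of 1674 at stage 9. As both ends were chosen by the oocyte ratio, these shares are given as a description.

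Gene lists changed their place between stages in different ways. Relative to the median of all genes of the stage, the cytosolic ribosomal proteins lay at 1.84 in the oocyte, 1.08 at stage 6 and 1.72 at stage 9. The signal receptors lay at -1.89 in the oocyte, -0.30 at stage 6 and -1.10 at stage 9. The replication-dependent histones lay at -0.85 in the oocyte, -3.38 at stage 6 and -2.95 at stage 9. The histone hist1h4d, for example, had 29.4 RPKM in polyA against 43.2 RPKM in RZ in the oocyte (log2 PA/RZ -0.56) and a log2 ratio of -3.55 at stage 6. The zona pellucida genes lay at 1.03 in the oocyte, -0.50 at stage 6 and 1.11 at stage 9. Within this list zp3 had a log2 ratio of 0.64 at stage 6. Single regulators also moved. The log2 ratio of fbxo43 was -2.58 in the oocyte, -0.48 at stage 6 and 0.23 at stage 9, and that of fbxo5 was -0.43 in the oocyte, -4.45 at stage 6 and -0.76 at stage 9. For kif11, known as Eg5, it was 1.09 in the oocyte, -2.62 at stage 6 and -0.54 at stage 9, and for cdk2 it was 1.05 in the oocyte, -2.12 at stage 6 and 0.47 at stage 9. These differences between stages were not tested.

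**Figure D5:**
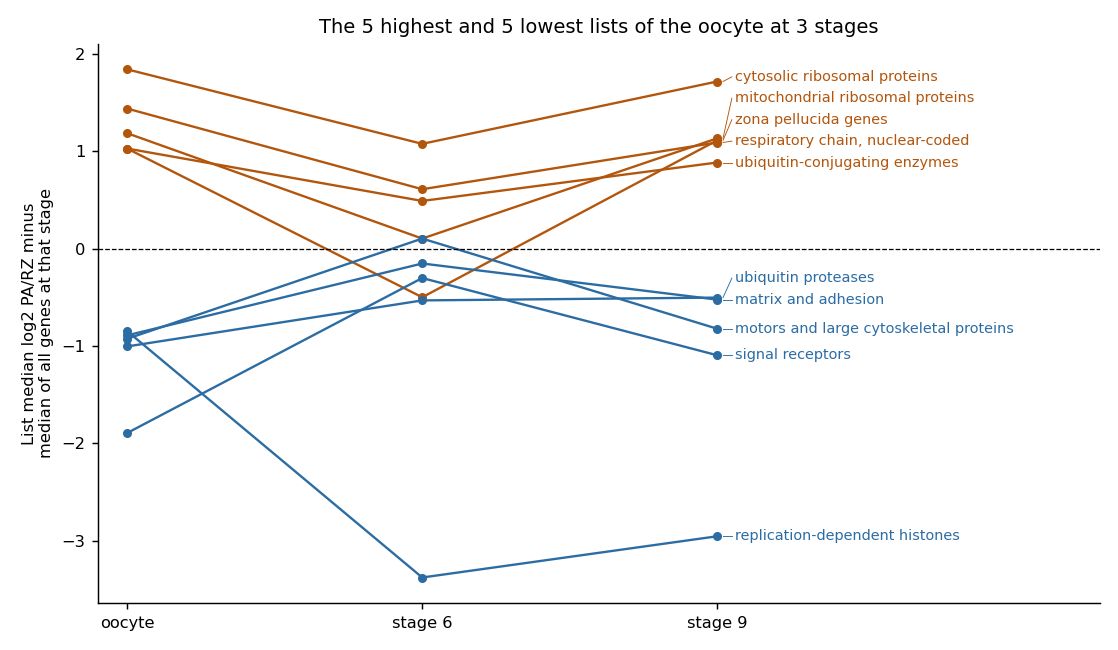
Median log2 PA/RZ of a gene list minus the median of all genes at that stage, for the 5 lists of highest (orange) and of lowest (blue) median in the oocyte, at the oocyte, stage 6 and stage 9. Cytosolic ribosomal proteins stay on top, zona pellucida genes dip below 0 at stage 6, and replication-dependent histones lie at -3.38 at stage 6.

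A further 10 genes had at least 1 RPKM in 1 oocyte library and were listed at 0 in the other, so that they had no ratio. The gene arsk was listed at 0 in polyA and at 1.14 RPKM in RZ. The other 9 were listed at 0 in RZ, and their polyA level lay between 1.09 RPKM (gjb1) and 2.99 RPKM (adh1); they were adh1, adh1a, cldn15.2, fbxo2, gjb1, gsto2, kcng2, krt and yjefn3. Of these, the keratin gene krt and the gap junction gene gjb1 were far more abundant in polyA libraries of later embryos, with 1591 RPKM for krt and 855 RPKM for gjb1 at stage 16. Likewise krt5.7 had 1.33 RPKM in polyA against 0.00716 RPKM in RZ in the oocyte and 2163 RPKM in polyA at stage 16. At stage 6, krt had 0.0127 RPKM in polyA and gjb1 had 0.00891 RPKM in polyA. These were the 3 genes with at least 1 RPKM in the polyA oocyte library among 14 that reached 500 RPKM in a polyA library of stage 12, 16 or 30 and were under 0.5 RPKM in the RZ oocyte library. Of the others, 7 were above 0 and under 1 RPKM in the polyA oocyte library and 4, the muscle genes myh1, mylpf, tnnc2 and tnni2, were listed at 0 there. The muscle gene act3 had 0.0383 RPKM in polyA against 0.0401 RPKM in RZ, and ckm had 0.0309 RPKM in polyA against 0.244 RPKM in RZ. A part of later-stage RNA in these low oocyte values was not tested. The lowest ratio of all members, -11.65, was that of slc34a2, with 0.000446 RPKM in polyA against 1.44 RPKM in RZ. As the RPKM of a gene was the mean over its exons, a single exon can carry such a value, and no weight is given to single genes of low level.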

How the data were processed

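Polyadenylated and rRNA-depleted (RZ) RNA had been sequenced in 9 libraries (6 polyA, 3 RZ), of which the 2 oocyte libraries are described here, with those of stages 6 and 9 for comparison. The authors deposited RPKM values per gene, the mean over the non-redundant exons of all isoforms, from reads aligned with BWA 0.6.1, per the submitters' processing notes, to the JGI 7.1 assembly; reads mapping to several positions were left out. Libraries were not made strand-specific by the stated protocol, so antisense transcription cannot be told apart. Starts are printed 1-based, as the deposited starts count from 0. Groups were taken from the sample labels.

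From these RPKM values log2 PA/RZ was computed without a pseudocount for genes with at least 1 RPKM in 1 oocyte library and above 0 in both. With 1 library per condition no test was made. Mapped reads were recovered for each library as the total that most often gave whole reads among short genes. With these totals, a gene was taken as single-exon if its reads lay within 0.001 of whole numbers in all 9 libraries, with reads in at least 3. A total of 46 functional lists and 5 marker lists were made from gene symbols, and 46 symbols that matched a list by prefix but not by function were taken out after the lists had been applied. The comparison and all lists were chosen with earlier results of these data known. Subgroups of lists were formed after the values were seen. Of the 9503 symbols, 8870 matched RefSeq names.

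Genes named were the 10 lowest and highest ratios among genes with a symbol and at least 10 RPKM in 1 library, the 3 most abundant and the extreme members of the lists described (not all are printed), genes listed at 0 in 1 library, genes the study names for the oocyte, the 5 highest genes per library, and the 5 lowest and highest single-exon genes with at least 20 reads. Other members were named after their values were seen. Some genes and a list are not reported here. Apart from the exception named for sox3, the paper's ontology, clustering and RT-qPCR results were not used here. Alternatives were a log2 fold of 0.5 or 2, other scalings, pseudocounts of 1 and 0.1, other RPKM minimums and centring within 10 groups by span. The procedures were run on simulated data to check the code. The changed genes there carried no noise, so that their recovery was fixed in advance. Python 3.11.15 was used with numpy 2.4.6, pandas 2.3.3, scipy 1.17.1 and matplotlib 3.10.9.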

Additional observations from a re-analysis of the deposited data

Results flagged for a closer look

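The zona pellucida genes had a median log2 PA/RZ of 1.32 in the oocyte, at least 2-fold toward polyA, and of -1.13 at stage 6, at least 2-fold toward RZ. This was picked out because the medians of the 2 stages pass 2-fold in opposite directions. Members differed, as the log2 ratio at stage 6 was -1.13 for zp2 but 0.64 for zp3. The difference between stages was not tested, as each stage has 1 library of each kind. Relative to the median of all genes, which itself was lower at stage 6, the list lay at 1.03 in the oocyte and at -0.50 at stage 6.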

How the results depend on the processing

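The number of genes toward RZ was 2674 at a log2 fold of 0.5 and 524 at a log2 fold of 2, where 930 genes were toward polyA. With equal summed RPKM 1235 genes were toward polyA and 3369 toward RZ, and the median was -0.49; centring on the median or within span groups sets it to 0. With at least 10 RPKM in 1 library the median was 0.45 and 1002 genes were toward RZ. A median counted as moved from a change of 0.1 and a count from a change of 1.5 times. Centring on the median and equal summed RPKM shift every ratio alike, so that all 90 list medians under them moved by construction. Under the other alternatives 187 values of list medians stayed within this limit and 83 moved. These alternatives include centring within span groups, which also sets the median of all genes to 0, so that its list medians moved in part by construction. The signal receptors remained the lowest list under every alternative but no RPKM minimum, under which the replication-dependent histones were lowest, and the cytosolic ribosomal proteins remained the highest under all alternatives run. The 5 highest lists were the same lists in each alternative. Of the 5 lowest, 2 remained when ratios were centred within span groups and 3 with at least 1 RPKM in both libraries. With a pseudocount of 1 or no RPKM minimum 4 remained, and in the others 5. Centring on the median and equal summed RPKM cannot change the order of lists, so that the order kept under them was fixed in advance. No paired analysis was possible because each condition has 1 library of pooled RNA. Depth limits genes near 3 reads per kb, and the reads behind genes with several exons are not known.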
